A study of Pimephales promelas with 191 samples.

Results

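The 100 genes described here are liver genes of adult male fathead minnows (Pimephales promelas) whose messenger RNA level went down at each successive collection, from 6 h through 24 h and 48 h to 96 h. They were taken from a table of 26150 genes. A gene was eligible if its median level over all libraries lay between 1 and 500 CPM (the count of the gene relative to the column total of its library), which held for 13268 genes. For each eligible gene the mean of log2(CPM + 0.1) was taken over the 4 treatments at each time. The gene was kept if these means fell at every step and no step was larger than the sum of the other two. This kept 216 genes, which were ranked by the fall from 6 to 96 h divided by the pooled standard deviation (SD) within the 16 groups. The first 100 are the members. Because time chose them, their average fall over time is a description and was not tested.

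The fish were controls or were exposed to metformin at 41 µg/L, to guanylurea at 100 µg/L, or to a mixture of both at these concentrations. Metformin is a biguanide drug against diabetes that passes through sewage treatment into rivers, and guanylurea is its main microbial breakdown product. The 4 treatments were each sampled at 6, 24, 48 and 96 h, with 12 libraries per group and 11 for guanylurea at 24 h. Nothing in the labels ties the libraries of 1 group to different fish or tanks. The p-values therefore measure the spread between these libraries. A collection time cannot be told apart from its time of day or handling.

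Liver messenger RNA levels are known to follow the daily clock, feeding and handling as well as chemical exposure. In a time course without a starting sample, a level that goes down in treated animals can be read as a treatment response only against controls collected at the same hour. The gene identifiers of the deposited tables matched no named gene, so what the members do is not known here, and markers of liver or other cell types could not be examined. Members are therefore called by rank in the score, with 4 identifiers printed. In whole liver, fewer cells of a type and less RNA per cell cannot be told apart.

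Library totals ranged from 12.7 M to 28.0 M counts, with a median of 19.5 M. The medians by time were 18.6 M (6 h), 19.3 M (24 h), 19.99 M (48 h) and 19.8 M (96 h), and the median number of genes with a count lay between 19740 and 20078. No pair of libraries within a group was close to identical, with chi-square values per degree of freedom of 36.2 or more. In 8 libraries the expression profile agreed less well with the rest of the group than elsewhere: control 6 h number 3, control 48 h number 12, control 96 h numbers 2 and 4, metformin 24 h number 3, metformin 48 h number 1, mixture 24 h number 4 and mixture 96 h number 3.

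The members were well expressed and varied little between libraries. Their median level was 23.5 CPM, with a range from 1.72 to 376 CPM, against 8.02 CPM for all eligible genes. Their pooled SD within groups had a median of 0.36 on the log2 scale, against 0.49 for eligible genes. A small SD raises the score, so the rule itself favours steady genes. The spread did not vary much with time: the median SD of the members was 0.37, 0.34, 0.36 and 0.40 at the successive times. Of the members, 68 had 1 transcript in the deposited transcript table, against 64.8% of eligible genes.

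The falls were gradual and mostly small. From 6 to 96 h the median member fell by a log2 of 0.41, which is a 1.33-fold lower level, and the range was 1.14-fold to 2.28-fold. These falls are means of log2(CPM + 0.1) by column total. On that scale the log2 fall was under 0.5 in 70 members, and 1 member, of rank 5, halved or more. By edgeR's fit, rank 85 had a log2 fall of 1.24 averaged over treatments, so this count depends on the scale. The median change of all eligible genes over the same interval was a log2 fall of -0.06, that is, a slight rise. At the edge of the list, the gene of rank 100 had a score of 0.7231 and the first gene left out a score of 0.7230, so the cut separates like genes.

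The steps were of like size over intervals of unlike length. The median log2 fall was 0.14 over the 18 h from 6 to 24 h, 0.11 over the next 24 h and 0.14 over the last 48 h. Per day this was 0.19, then 0.11, then 0.07. With libraries scaled by TMM, which adjusts each total so that most genes do not differ between libraries, the daily falls were 0.21, 0.16 and 0.06. The last interval is longer than the first 2 together, and the rule lets no step exceed the sum of the others, so a gene falling at a constant rate could not be a member. With column totals, the rule thus required a lower daily fall in the last interval than over the first 2 together. It did not set the size of this difference, which was not tested, and nothing is read from it.

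**Figure D1:**
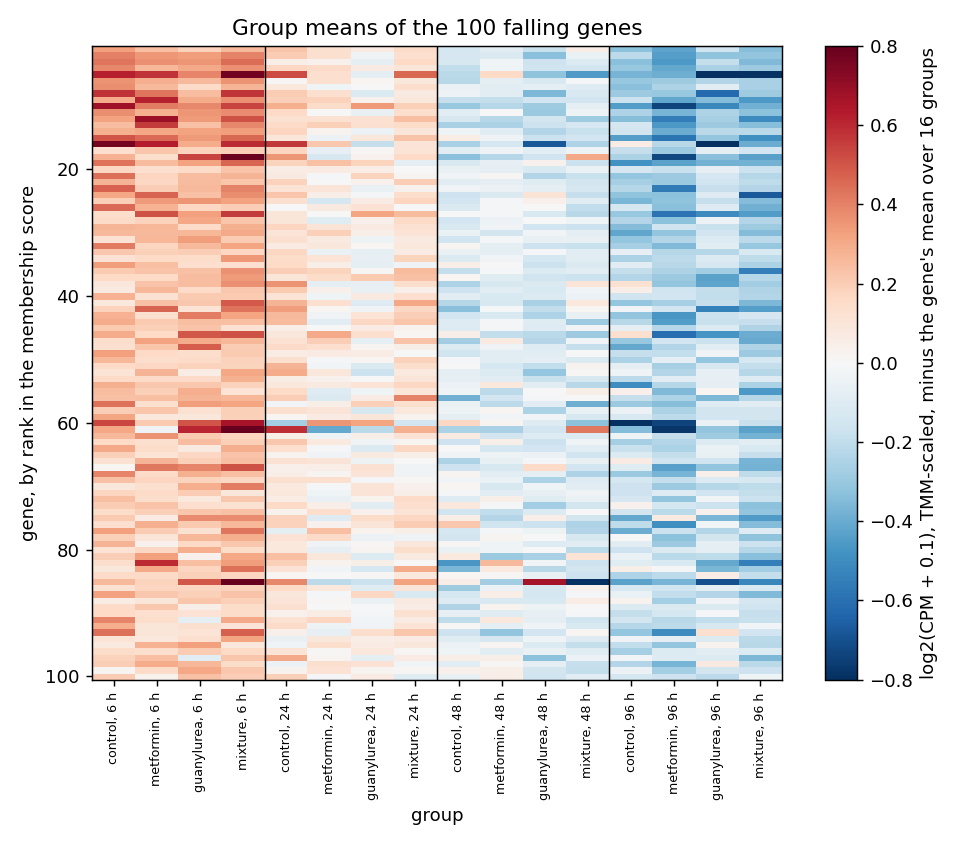
Group means of the 100 members (rows, by rank) in the 16 groups (columns, ordered by time and then treatment), as TMM-scaled log2(CPM + 0.1) minus the mean of the gene over the groups; colours are limited to 0.8 in each direction. At 6 h, 98 to 100 members lay above their own mean in each treatment, and at 96 h 0 to 10 did.

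Group by group, the map of TMM-scaled member means shows the same order in the 4 treatments. The rule chose the members on the average of these treatments, so this order is a description. At 24 h, 94 members were above their own mean in control, 67 in metformin, 59 in guanylurea and 88 in the mixture. At 48 h the counts were 19, 20, 9 and 17. The steady fall is a property of the average over treatments more than of each treatment. With column totals, the scale of the rule, 8 members had group means that fell at every step in all 4 treatments. For 18 members this held in 3 treatments, for 29 in 2, for 25 in 1 and for 20 in none.

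The member of highest score, FMg010021 (rank 1), is an abundant transcript. Over all treatments it ranged from 264 to 714.3 CPM at 6 h, with a median of 419.9 CPM (n = 48). At 24 h it ranged from 233.5 to 774.6 CPM with a median of 399 CPM (n = 47). At 48 h the range was 244.4 to 492.8 CPM and the median 357.6 CPM (n = 48), and at 96 h the range was 169.5 to 466.4 CPM and the median 305.6 CPM (n = 48). The medians fell at each time and the ranges overlapped throughout. The largest of its 3 steps was the last one.

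Within control, FMg010021 went from a median of 456.6 CPM at 6 h (336.2 to 714.3 CPM, n = 12) to 272.6 CPM at 96 h (169.5 to 328.7 CPM, n = 12), so that all control 96 h libraries were below the lowest control 6 h library. In guanylurea it went from 409.4 CPM (264 to 533.1 CPM, n = 12) to 346.8 CPM (277.2 to 466.4 CPM, n = 12), and the ranges overlapped widely. The medians in metformin were 395.9 and 282.9 CPM, and those in the mixture 444.2 and 303 CPM.

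The member of rank 2, FMg005488, showed an earlier fall. It ranged from 159.5 to 461.7 CPM at 6 h with a median of 270.9 CPM, and from 133.8 to 471.2 CPM at 24 h with a median of 232.2 CPM. At 48 h the range was 127.4 to 355.4 CPM with a median of 195.5 CPM, and at 96 h it was 88.9 to 270.4 CPM with a median of 174.2 CPM. Its steps became smaller with time, at log2 falls of 0.24, 0.22 and 0.18.

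**Figure D2:**
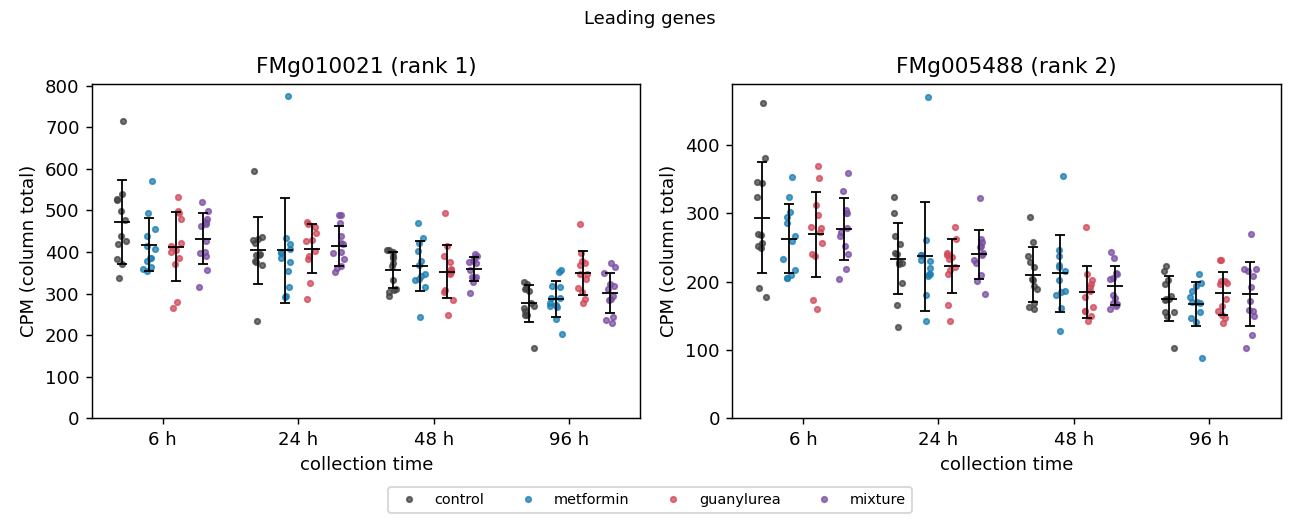
Level of FMg010021 (left) and FMg005488 (right) in each library, in CPM by column total, by collection time and treatment; points are libraries, and bars are the group mean and SD (12 libraries a group, 11 for guanylurea at 24 h). Between 6 and 96 h the median over treatments went from 419.9 to 305.6 CPM for FMg010021 and from 270.9 to 174.2 CPM for FMg005488.

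Falls were found in scarce and abundant transcripts. Rank 5 was a scarce transcript, with a median of 5.10 CPM at 6 h (1.43 to 10.9 CPM), 4.44 CPM at 24 h (0.96 to 8.28 CPM), 3.10 CPM at 48 h (0.887 to 8.12 CPM) and 2.19 CPM at 96 h (0.805 to 5.74 CPM). Its fall of 2.28-fold was the largest of the 100 on the scale of the rule. Rank 10 had medians of 59.8 CPM (17.2 to 119 CPM), 51.8 CPM (17.6 to 91.0 CPM), 39.3 CPM (14.4 to 66.9 CPM) and 29.0 CPM (10.4 to 71.4 CPM) at the 4 times. In both members the ranges at 6 and 96 h overlapped.

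To see whether the fall appeared in libraries that had not chosen the genes, the rule was applied to 3 treatments at a time, and the resulting genes were tested in the fourth, 96 h against 6 h, with edgeR's quasi-likelihood test and Benjamini-Hochberg adjustment over all genes tested. Genes with an adjusted p under 0.05 were counted as called. The treatments shared the collection occasions, so this tests the fall in other libraries, not at other occasions. The lists overlap the 100 members only in part, by 47, 53, 64 and 41 genes for control, metformin, guanylurea and mixture left out.

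In control, 39 of the 100 genes chosen without it were called lower at 96 h, against 4.11% of all genes tested and 4.64% of those in the CPM range. Their median log2 change was -0.42, and 97 lay below 0, against 48.3% of genes in the range. In metformin, 39 of 100 were called lower (1.74% of all genes, 1.98% in the range), with a median of -0.47 and all 100 below 0. In guanylurea, 25 of 100 were called lower (1.07% of all genes, 1.23% in the range), with a median of -0.36 and 98 below 0. Without the mixture the rule kept 96 genes, of which 39 were called lower in the mixture (40.6%, against 5.0% of all genes and 5.54% in the range), with a median of -0.41 and 90 below 0. None was called higher in any of the 4 treatments by edgeR. Of all genes tested, 1116, 508, 298 and 1529 were called in either direction in control, metformin, guanylurea and mixture. Of these, 671, 284, 179 and 818 were lower.

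**Figure D3:**
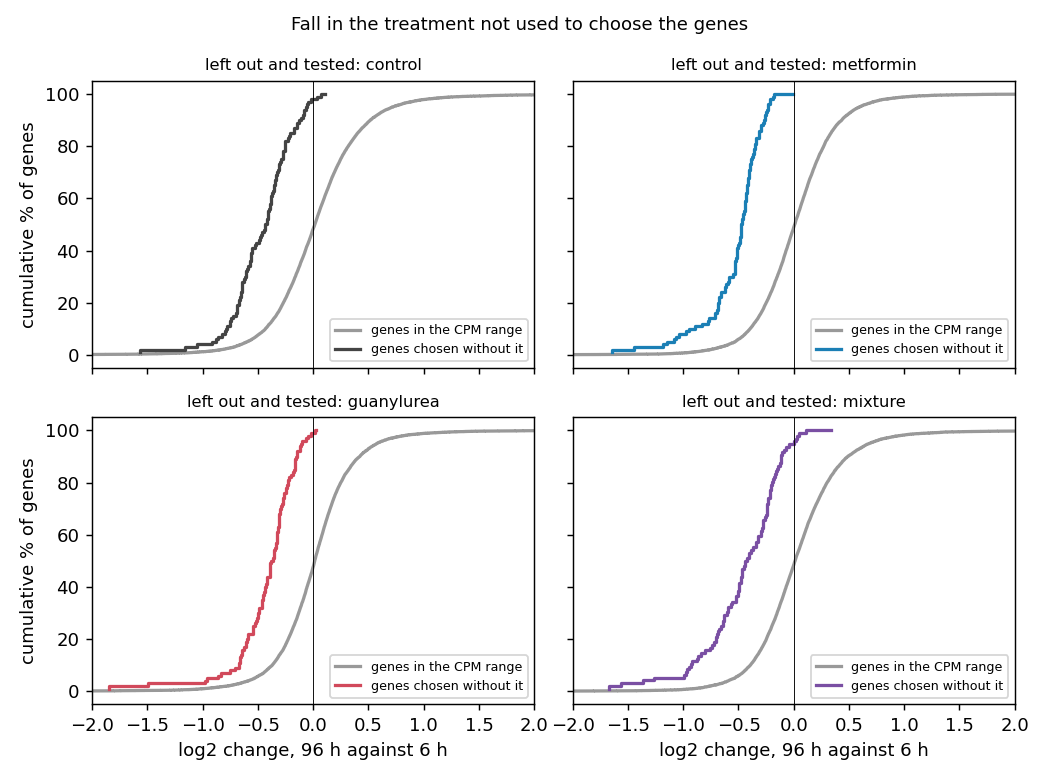
Cumulative share of genes (y axis, %) against the log2 change from 6 to 96 h (x axis) in the treatment left out of the rule; the coloured line is the genes chosen from the other 3 treatments and the grey line all genes in the CPM range. The chosen genes had medians of -0.42 (control), -0.47 (metformin), -0.36 (guanylurea) and -0.41 (mixture), while the medians of all genes in the range were between 0.009 and 0.015.

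The steady shape was counted with column totals, while the tested falls used TMM. A gene whose means fall at every step is also lower at 96 h. On a given scale the shape therefore cannot be more frequent than the fall, and nothing is read from that comparison. In the left-out treatment, group means fell at every step for 32 genes in control, 26 in metformin, 27 in guanylurea and 29 in the mixture. Among genes in the CPM range the shares were 2.85%, 2.58%, 3.12% and 4.94%.

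Of the 100 members, 88 were chosen in at least 1 of these 4 lists and 13 in all 4. Membership itself used all 4 treatments, so the values of single members that follow are descriptions with no test. FMg005488 (rank 2), chosen in all 4 lists, fell by a log2 of 0.64 (standard error, SE, 0.16) in control, 0.77 (SE 0.19) in metformin, 0.66 (SE 0.14) in guanylurea and 0.68 (SE 0.13) in the mixture. Rank 5 fell by 1.05, 0.98, 1.49 and 1.56 in the same order, and rank 10 by 1.16, 1.08, 0.98 and 0.87.

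FMg010021 (rank 1) was in the lists made without control, metformin or the mixture, but not in the one made without guanylurea. Its log2 change was -0.65 (SE 0.13) in control, -0.66 (SE 0.14) in metformin, -0.34 (SE 0.11) in guanylurea and -0.59 (SE 0.09) in the mixture.

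A mean over the 100 members in each library shows how single libraries followed the pattern. On the TMM-scaled log2 scale, centred per gene, this mean had a median of 0.24 (-0.15 to 0.68) at 6 h. It was 0.08 (-0.21 to 0.44) at 24 h, -0.14 (-0.33 to 0.59) at 48 h and -0.24 (-0.77 to 0.002) at 96 h. On this scale all 12 libraries at 96 h lay below the lowest library at 6 h in metformin, guanylurea and the mixture. In control 7 of 12 did, since control 6 h number 3 had the lowest 6 h value, -0.15. That library, the highest at 48 h (metformin number 1) and the lowest at 96 h (mixture number 3) are among the 8 of low agreement. The part of these libraries in the spread was not tested. With column totals, the scale of the rule, only the mixture was free of overlap (lowest 0.090 at 6 h, highest 0.0010 at 96 h). There the lowest value at 6 h and the highest at 96 h were -0.14 and -0.00073 in control, -0.17 and 0.18 in metformin, and -0.32 and 0.057 in guanylurea. Since time chose the members, these ranges are a description on both scales.

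**Figure D4:**
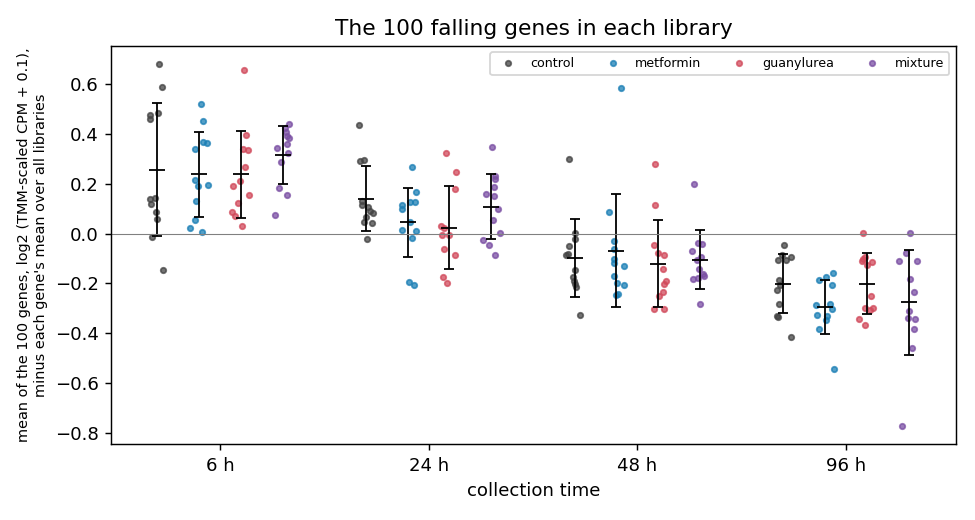
Mean of the 100 members in each library (y axis, TMM-scaled log2(CPM + 0.1) minus the mean of each gene over all libraries) by collection time and treatment; bars are the group mean and SD. Medians over treatments were 0.24, 0.08, -0.14 and -0.24 at the 4 times, and on this scale the ranges at 6 and 96 h overlapped in control only, while with column totals they overlapped in control, metformin and guanylurea.

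The members also moved together between libraries of the same group, a property the rule did not use directly. After subtracting group means, the correlation of 2 members over all libraries had a median of 0.21 (4950 pairs), and 83.9% of pairs were above 0. All eligible genes had a median of 0.12, with 73.4% above 0. The 116 genes that had the shape but not the score had a median of 0.15, and 100 genes chosen by the same rule turned round, for a steady rise, had 0.36. Every member had a mean correlation above 0 with the others, from 0.006 to 0.36. Members share the libraries, their scaling and their depth, so these values describe the libraries and were not tested.

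How far the members fell in each treatment depended on the scaling. With column totals, the median log2 fall was 0.53 in control, 0.35 in metformin, 0.27 in guanylurea and 0.47 in the mixture. On the same scale the median eligible gene changed too, by falls of 0.10, -0.13, -0.12 and -0.08, where a negative fall is a rise. With TMM, eligible genes were near 0 in each treatment, and the members fell by 0.42, 0.48, 0.39 and 0.55. Control had the largest fall with column totals and ranked below metformin and the mixture with TMM, while guanylurea had the smallest with both. The fall was smallest in guanylurea for 61 members with column totals, for which no share over eligible genes is given. With TMM it was smallest in guanylurea for 48 members, control for 36, metformin for 10 and the mixture for 6. Among eligible genes, these treatments held the smallest fall or largest rise in 29.0%, 29.1%, 21.2% and 20.7%. With column totals 96 members fell in all 4 treatments, and with TMM 97 did.

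For the contrast that the rule used, edgeR called all 100 members lower at 96 h on average over treatments, where 14.3% of all genes were called lower, and nothing is read from that. In the fit of all libraries 56 members were called lower in control (5.65% of genes), 52 in metformin (2.62%), 25 in guanylurea (1.12%) and 72 in the mixture (3.78%). The rule used these libraries too.

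Few members differed between an exposure and control, and few of all genes tested did. Averaged over the 4 times, and by edgeR's quasi-likelihood test with all libraries, metformin differed from control in 0 of the 100 members at an adjusted p under 0.05 (0.0882% of all genes in either direction). Of the members, 9 had an unadjusted p under 0.05, against 10.9% of all genes, and DESeq2 and limma voom called 0 as well. The mixture differed in 0 (0.0386% of all genes), with 7 at an unadjusted p under 0.05 (6.21% of all genes) and 0 by both other tools. For metformin and for the mixture, all 100 members had a 95% interval inside 2-fold, and for guanylurea 99 did. Of all genes 92.2%, 92.1% and 91.1% did, and the rule favours genes of small SD. Guanylurea was lower than control in 4 members and higher in 0 by edgeR (1.06% of all genes were called lower and 0.237% higher, 1.3% in all), with 15 members at an unadjusted p under 0.05, against 13.3% of all genes. DESeq2 and limma voom each called 6 members in either direction. No share over all genes is given for these 2 tools, so nothing about the members as a set is read from their counts. The 6 of DESeq2 include FMg006510 (rank 85), which was higher with guanylurea (log2 0.98, DESeq2 adjusted p = 0.0286). The 3 treatment comparisons share the control libraries. On simulated counts drawn from all genes tested, the guanylurea comparison averaged over times made 245 calls, of which 22 were false. How often a call of a member is false was not tested.

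The clearest of the 4 was the member of rank 16. In controls its level was 19.4 to 53.7 CPM at 6 h (median 43.6 CPM), 21.2 to 42.4 CPM at 24 h (median 34.0 CPM), 7.93 to 52.2 CPM at 48 h (median 23.8 CPM) and 11.9 to 38.0 CPM at 96 h (median 23.8 CPM). With guanylurea it was 12.1 to 47.4 CPM (median 30.7 CPM), 9.98 to 46.9 CPM (median 24.0 CPM), 6.91 to 38.3 CPM (median 13.0 CPM) and 6.09 to 32.7 CPM (median 9.66 CPM). The groups overlapped at each time, and 10 of 12, 9 of 11, 9 of 12 and 10 of 12 exposed libraries lay below the control median. The averaged difference was a log2 of -0.64 (SE 0.13, adjusted p = 0.000885).

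The mixture held guanylurea at the same concentration, and there the member of rank 16 differed from control by -0.25 (95% interval -0.49 to -0.003, adjusted p = 0.803). Metformin alone gave -0.14 (95% interval -0.38 to 0.11, adjusted p = 0.754). By column total, 10, 8, 7 and 10 of 12 mixture libraries lay below the control median at the 4 times. With metformin alone 11, 7, 7 and 7 of 12 did. The difference between guanylurea alone and the mixture was not tested.

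The other 3 members that were lower with guanylurea differed by less. Rank 8 differed by a log2 of -0.32 (SE 0.08, adjusted p = 0.0144), at medians of 19.2, 13.0, 12.6 and 9.71 CPM in control and 14.5, 11.7, 8.84 and 8.39 CPM with guanylurea, and 10 of 12, 6 of 11, 8 of 12 and 8 of 12 exposed libraries were below the control median. Rank 97 differed by -0.29 (SE 0.07, adjusted p = 0.0130), and 10 of 12, 8 of 11, 12 of 12 and 5 of 12 exposed libraries were below the control median. Counts against the control median are by column total, while the test used TMM. By column total the direction did not hold at 96 h for rank 97, nor at 6 h and 96 h for rank 73. Differences at single times were not tested. Rank 73 differed by -0.23 (SE 0.07, adjusted p = 0.0435), with 5 of 12, 8 of 11, 10 of 12 and 6 of 12 libraries below. Its adjusted p was 0.0578 when no filter on low counts was used. In the mixture, which held guanylurea at the same concentration, rank 8 differed from control by -0.04 (edgeR, SE 0.08, adjusted p = 0.998). Rank 97 differed there by -0.16 (SE 0.07, adjusted p = 0.682) and rank 73 by -0.18 (SE 0.06, adjusted p = 0.475). With metformin alone the differences were -0.07, -0.08 and -0.10 in this order (adjusted p = 0.793, 0.744 and 0.61). Guanylurea alone was not tested against the mixture.

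Of the members above control with an exposure, the 2 of smallest p did not pass the test. FMg006510 (rank 85) had a fitted log2 difference of 0.99 with guanylurea (SE 0.29, adjusted p = 0.0597). The value was 0.98 by DESeq2 (adjusted p = 0.0286), 0.82 with the replicate number as a block (adjusted p = 0.20) and 0.007 by limma voom (adjusted p = 0.995). Its control medians were 2.57, 2.98, 1.98 and 1.57 CPM at the 4 times and its guanylurea medians 2.68, 1.25, 2.45 and 1.26 CPM. The guanylurea groups held 1 library at 140.5 CPM at 24 h and 1 at 77.8 CPM at 48 h, and only 7 of 12, 2 of 11, 6 of 12 and 5 of 12 libraries were above the control median. FMg022377 (rank 67) had a difference of 0.46 (SE 0.17, adjusted p = 0.149), and of 0.16 by limma voom (adjusted p = 0.613), with guanylurea libraries up to 133.7 CPM at 24 h beside a median of 7.95 CPM, and 5 of 12, 3 of 11, 10 of 12 and 6 of 12 libraries above the control median.

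Whether exposure altered the fall itself was tested as a difference between the changes from 6 to 96 h. An F test over the 4 treatments called 0 members by edgeR (1.21% of all genes), with 4 at an unadjusted p under 0.05 (11.1% of all genes) and 0 by DESeq2 and by limma voom. Against control, the change with metformin differed in 0 members (0.419% of all genes), with 6 at an unadjusted p under 0.05 (9.13% of all genes), and that with the mixture in 0 (0.667%), with 8 at an unadjusted p under 0.05 (10.2%), by edgeR, DESeq2 and limma voom alike. For each of the 3 exposures 87 members had a 95% interval of this difference inside 2-fold. Of all genes 53.1% did for metformin, 50.1% for guanylurea and 52.7% for the mixture. In the other 13 members a 2-fold difference is within the interval. The median member fell 1.33-fold, so an interval inside 2-fold can still hold the loss of a whole fall. On simulated counts, drawn from all genes tested, the guanylurea comparison recovered 10.6% of 1.5-fold and 38.8% of 2-fold differences. The members were more abundant and steadier than most of these genes, and recovery for such genes was not simulated. Of the 86 calls that the guanylurea comparison made on these counts, 9 were false. With intervals this wide, the calls of 0 members do not show that the fall was unaltered. The median difference over the members was a log2 of -0.05 for metformin, 0.04 for guanylurea and -0.04 for the mixture.

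One change differed from control, that of rank 7 with guanylurea (1 member called higher and 0 lower; of all genes 0.601% were called higher and 1.77% in either direction). In control it had medians of 106.4 CPM at 6 h (75.1 to 166 CPM), 84.6 CPM at 24 h (59.5 to 112.5 CPM), 85.7 CPM at 48 h (74.4 to 119.3 CPM) and 65.2 CPM at 96 h (47.4 to 81.9 CPM). With guanylurea the medians were 96.7 CPM (60.8 to 119.6 CPM), 94.6 CPM (70.8 to 113.2 CPM), 85.7 CPM (75.1 to 106.3 CPM) and 87.1 CPM (64.2 to 101.7 CPM). At 96 h, 11 of 12 guanylurea libraries were above the control median, and at 6 h 10 of 12 were below it. These levels and counts are by column total, while the test used TMM. Mean TMM factors at 96 h were 1.06 for guanylurea and 0.94 for control, and a higher factor lowers the scaled level. At 6 h they were 0.98 and 1.01.

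The log2 change of the member of rank 7 from 6 to 96 h was -0.74 in control and -0.25 with guanylurea, and the difference was 0.49 (SE 0.13, 95% interval 0.23 to 0.74, adjusted p = 0.0242). It was not called by limma voom (0.41, adjusted p = 0.204) or without the 8 libraries of low agreement (0.49, adjusted p = 0.0573). In metformin and the mixture its change differed from that in control by 0.22 (95% interval -0.03 to 0.48, adjusted p = 0.619) and 0.21 (95% interval -0.04 to 0.47, adjusted p = 0.613).

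**Figure D5:**
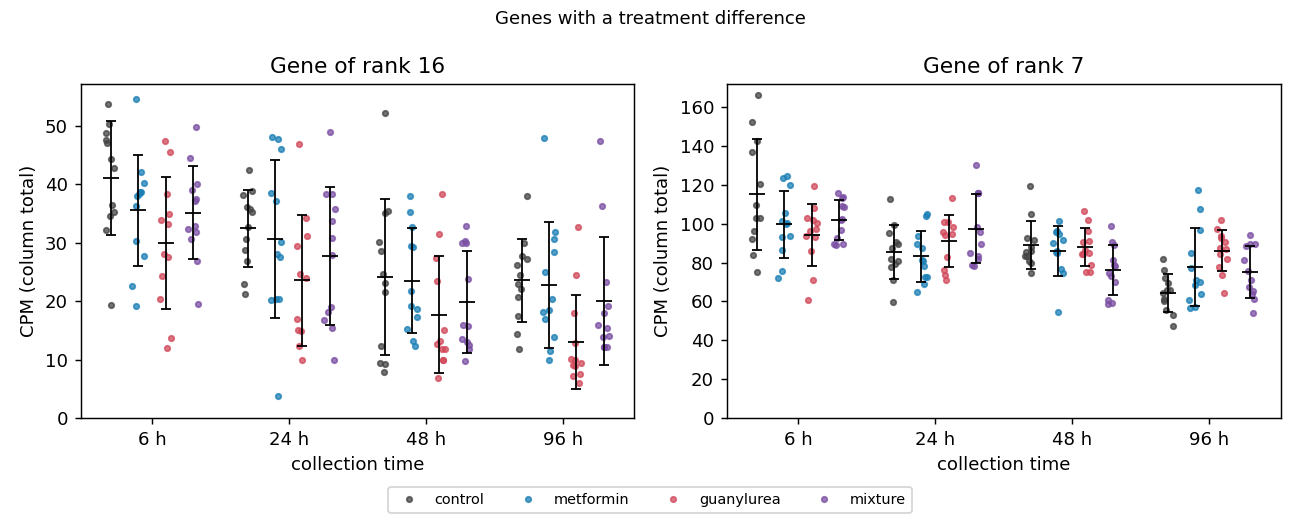
Level of the members of rank 16 (left) and rank 7 (right) in each library, in CPM by column total, by collection time and treatment; points are libraries, bars the group mean and SD. For rank 16 the guanylurea median was below the control median at every time (30.7 against 43.6 CPM at 6 h, 9.66 against 23.8 CPM at 96 h); for rank 7 it was 87.1 against 65.2 CPM at 96 h.

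The transcript table allowed a look at which transcripts of the members fell. Of the members' transcripts, 143 were abundant enough to test, and 99 were called lower at 96 h and 0 higher by edgeR. Of all 24841 transcripts tested, 10.2% were called lower and 10.3% higher. The rule used this contrast, so nothing is read from it. How a gene divides its counts among its transcripts was not used directly by the rule, and 24 members had at least 2 transcripts that could be tested for it. By limma on the log2 ratio of the leading transcript to the others, 3 of the 24 (12.5%) were called. This is near the background of 14.7% of the 3858 genes tested. On simulated counts this test recovered 8.1% of 1.5-fold and 67.2% of 4-fold changes of 1 transcript. The leading transcript of the member of rank 59 made up 86.7% ± 7.42 (SD, n = 48) of its counts at 6 h and 79.1% ± 7.23 (SD, n = 48) at 96 h, and its log2 ratio to the others changed by -0.91 (limma, adjusted p = 0.000129). That of rank 80 went from 93.1% to 90.1% and that of rank 65 from 94.9% to 91.9%. The leading share was lower at 96 h in 17 of the 24 members, against 56.9% of all genes tested. The rule chose genes whose total fell, and the leading transcript weighs most in that total. Choice by the rule can therefore favour a lower leading share. Nothing is read from this direction, or from that of the 3 calls. Because 0.5 was added to each count, the log2 ratio can also fall with the total of a gene whose other transcripts are few.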

How the data were processed

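The authors deposited expected counts per gene and per transcript, estimated by RSEM and given as whole numbers, for every library. The tools were RSEM 1.3.1, Bowtie2 2.3.5 and bcl2fastq 1.8.4, per the submitters' processing notes. Tri-Reagent gave the RNA and a stranded mRNA kit the libraries, per the labels' protocols. Genome build, annotation and strand setting: not given in the sources used here. RSEM divides reads that match several genes by an estimate, so counts of near-identical copies are uncertain. Of 26150 gene identifiers, 0 matched the 64593 RefSeq genes of fPimPro1.hap1.1, so no sequence or name is given and lists of pathway and marker genes were not tested.

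The members and lists were chosen with earlier results of these data known. The rule used column totals. Tests used edgeR 4.0.16 (R 4.3.3): rounding (which changed no value), filterByExpr (minimum count 10, minimum total 15; 18145 genes tested, all 100 members among them), TMM scaling and a robust quasi-likelihood fit with a mean for each of 16 groups, or for the 4 groups of 1 treatment when that treatment was left out of the rule. Adjusted p-values are Benjamini-Hochberg over all genes tested. Standard errors are the log2 change over the root of F, and intervals are ±1.96 SE. Alternatives were limma 3.58.1 (voom, weighting libraries by quality), DESeq2 1.42.0, its size factors in edgeR, keeping genes of low count, a replicate block, an adjusted p under 0.10 and leaving out libraries of low agreement (5 median absolute deviations below the median).

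Transcripts were assigned to genes by row order, which was checked on the sums of counts in every library; 5 members with an ambiguous border transcript were left out. Transcript usage was first tested with edgeR's diffSpliceDGE, which called many unchanged genes on simulated data, and limma on a log2 ratio replaced it after the data were seen. The other scripts were tested on simulated counts. The named identifiers are the 2 members of highest score and the 2 members above control of smallest p in a treatment comparison averaged over times; other members are given by rank. The labels give no batch, so none was modelled.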

Additional observations from a re-analysis of the deposited data

Results flagged for a closer look

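The change from 6 to 96 h of the member of rank 7 differed between guanylurea and control, which is why it is listed here: the difference was 0.49 on the log2 scale (edgeR's quasi-likelihood test, adjusted p = 0.0242), with the gene falling less under guanylurea. By column total, 11 of 12 guanylurea libraries were above the control median at 96 h, and 10 of 12 were below it at 6 h. The test used TMM, so these counts are on another scale. The call was lost with limma voom (adjusted p = 0.204) and without the 8 libraries of low agreement (adjusted p = 0.0573). It was the only call among the members for this comparison by edgeR. On simulated counts, 9 of the 86 calls of this comparison were false. Of all genes tested, 1.77% were called in either direction and 0.601% higher. A single call beside these shares is not read as a result about the members as a set.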

How the results depend on the processing

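Membership depended on the scaling and on which libraries were averaged. Of the 100 members, the rule kept 45 with TMM, 47 with DESeq2 size factors, 48 with group medians and 65 without libraries of low agreement. With control, metformin, guanylurea or mixture left out it kept 47, 53, 64 and 41. With TMM 84 members still had the shape asked for, and all 100 were higher at 6 than at 96 h under each of these alternatives. With an adjusted p under 0.10, guanylurea differed from control in 7 members, and 6 members were called for transcript usage. At that threshold 39 genes were lower in guanylurea when it was left out of the rule. No share over all genes is given beside the counts of calls in this section. A count that differs from the main one is therefore not read as a result about the members or lists. For the change with guanylurea, limma voom called 0 members, and 0 were called without libraries of low agreement. Without those libraries, 62 genes were lower in metformin when it was left out of the rule; the cause was not tested. For guanylurea, the log2 difference of FMg006510 was 0.98 by DESeq2 (adjusted p = 0.0286) but 0.007 by limma voom (adjusted p = 0.995), that of FMg022377 was 0.16 by limma voom (adjusted p = 0.613), and the adjusted p of rank 73 was 0.0578 with no low-count filter. The other counts of calls stayed within 1.5 times, and no direction was reversed.

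The replicate numbers of the groups were not used to pair the libraries in the main fit. Same-numbered libraries had a mean correlation of 0.019 (lowest -0.36), against -0.0014 for libraries of different number and group. By number the mean ranged from -0.015 to 0.058. In all, 23 libraries were closest to their own number, and the count for unrelated numbers was not computed. Whether the numbers mark a weak pairing was not tested. With the number as a block, guanylurea differed from control in 3 members, the member of rank 73 having an adjusted p of 0.0578, and 35, 40, 26 and 40 genes were lower in the left-out control, metformin, guanylurea and mixture. Leaving out each single replicate was not run, since the groups hold 11 or 12 libraries.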
